A study of Mus musculus with 32 samples.

Results

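Whether LPS altered the response to dexamethasone was measured in bone marrow-derived macrophages labelled Acod1 knockout, as the dexamethasone effect in LPS-treated cells minus the dexamethasone effect in cells without LPS. The comparison used 16 of the 32 libraries, 4 in each of 4 groups: untreated, 100 nM dexamethasone, 100 ng LPS, and both, each for 24 h. The labels give no volume for the LPS dose. The other 16 libraries, of wild-type cells under the same 4 treatments, were fitted together with them and share the estimate of the spread. They also served to show where the knockout differed, and to choose the genes used to describe the libraries with both agents. The marrow was taken from femur and tibia of 8- to 12-week-old mice of the C57BL/6J background, with Irg1-/- and Irg1+/+ mice from Jackson and further wild-type mice from Janvier, and was grown in medium with M-CSF from L929 cells. All groups shared that culture, and the labels do not say which wild-type mice the wild-type libraries came from. The labels give neither the deleted part of Acod1 (also called Irg1) nor whether a group's 4 libraries are of different mice. If they are not, the tests below measure technical spread only.

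Dexamethasone is a synthetic glucocorticoid. It binds the glucocorticoid receptor, encoded by Nr3c1, which raises genes that carry its response elements and restrains transcription driven by NF-kappaB and AP-1. LPS, a wall component of Gram-negative bacteria, is sensed by TLR4, which starts NF-kappaB signalling and, through interferon beta, the interferon-stimulated genes. Acod1 encodes the mitochondrial enzyme that makes itaconate from cis-aconitate and is itself induced by LPS in macrophages.

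Levels are CPM, the share of a library's counts per 1000000 after scaling, given as 4 libraries or as mean ± SD (n = 4), and effects are log2 fold changes ± SE. An interaction above 0 means that dexamethasone raised a gene by a larger factor, or lowered it by a smaller one, with LPS than without, and an interaction below 0 means the reverse. It is a departure from multiplying factors, not from adding CPM. A gene was called at an adjusted p under 0.05 in edgeR's quasi-likelihood test with Benjamini-Hochberg adjustment over 14427 genes, and all adjusted p values below come from it. The 16 libraries held 17739050 to 25049200 counts. Summed macrophage markers lay between 20080 and 26870 CPM, while markers of T and NK cells and of erythroid cells stayed at or under 0.604 CPM. Markers of neutrophils, B cells, mast cells, dendritic cells and fibroblasts reached 87.0, 87.3, 25.8, 15.9 and 3.96 CPM and differed between treatments. Both dexamethasone effects lay mostly within 1 sequencing lane: the untreated and dexamethasone libraries without LPS were in lane 3 except 1 merged and 1 in lane 2, and all 8 with LPS were in lane 2. A lane effect on all libraries alike therefore cancels, but one that altered the dexamethasone effect cannot be told apart from LPS. All wild-type libraries were in lane 3, so among LPS-treated cells such an effect cannot be told apart from genotype either. With each dexamethasone effect taken within 1 lane, 5685 genes were called.

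Acod1 itself (chr14:103284413-103294009 in the coordinates of the deposited table) was at 6.31, 6.2, 4.71 and 6.07 CPM in the untreated libraries, at 0.359, 0.607, 0.634 and 0.362 CPM with dexamethasone, at 4898, 4914, 4979 and 5187 CPM with LPS and at 4119, 4034, 3908 and 3670 CPM with both. The untreated and dexamethasone libraries did not overlap, nor did the LPS libraries overlap those with both. Wild-type libraries held 6483 ± 249 CPM with LPS (mean ± SD, n = 4), so gene-level reads do not show a deletion and check the genotype label neither way. The Acod1 interaction was 3.19 ± 0.19 (adjusted p 9.4e-20), and in CPM the difference of the differences was -1056, the opposite direction.

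The 4 knockout libraries with both agents stood apart in one respect that touches every result here. No gene that was well expressed with LPS was lowered 2-fold by dexamethasone: of 6677 genes at 20 CPM or more in the LPS group, 0 fell 2-fold or more by the fitted effect and the lowest log2 effect was -0.79. In wild type 649 of 6713 such genes fell 2-fold or more. Without LPS the knockout cells had no such limit, with 302 of 6811 genes at 20 CPM or more in untreated cells lowered 2-fold or more and a lowest effect of -4.36. For 47 genes that wild-type cells lowered 16-fold or more with LPS, the median level left in the knockout libraries 1 to 4 was 60.5%, 64.1%, 68.1% and 60.5% of the LPS level, against 2.55% to 2.75% in wild-type libraries. The 24 genes that wild-type cells raised 16-fold or more reached a median of 38.9%, 36.7%, 39.0% and 45.3% of the wild-type level.

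**Figure D1:**
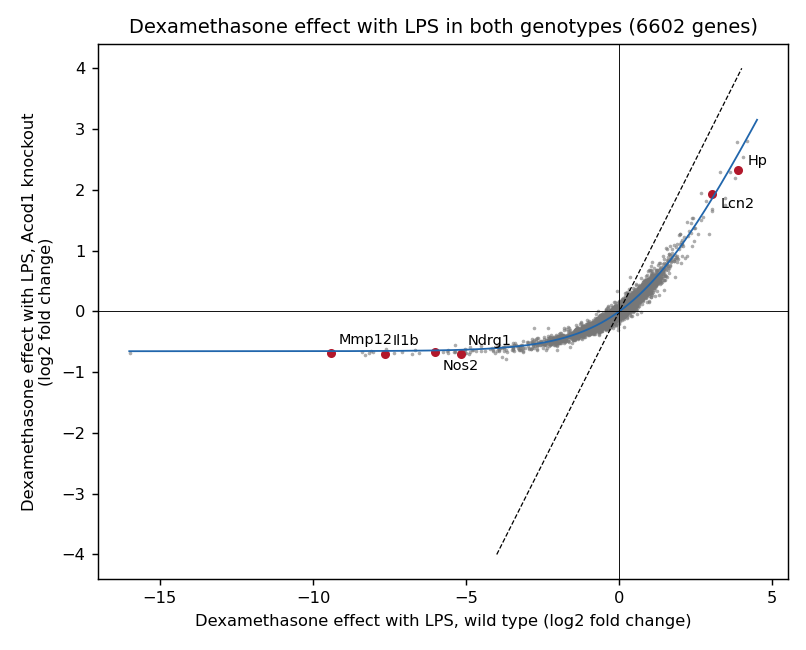
Dexamethasone effect in LPS-treated cells (log2 fold change) in wild type on the horizontal axis and in knockout on the vertical axis, for 6602 genes at 20 CPM or more with LPS in both genotypes, each point a gene. The dashed line marks equal effects, and the blue curve is the effect for 63.5% of the LPS level plus 36.5% of the wild-type level with both agents. Knockout effects flatten above -0.79, while wild-type effects reach -15.97.

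Adding 63.5% of the knockout LPS level, the median over the 47 genes of the ratio of group means, to 36.5% of the wild-type level with both agents gave the knockout level with both agents, for 1120 other genes that wild-type cells changed 2-fold or more, with a median log2 deviation of -0.005 (5th percentile -0.129, 95th percentile 0.127). A partial response in every cell and a sum of RNA from material with and without the response give the same bulk levels and cannot be told apart. The same holds for fewer cells of a type and less RNA per cell. As arithmetic, a gene lowered by more than 0.79 without LPS and at 20 CPM or more with LPS has an interaction above 0, since the effect with LPS did not go that low. Named genes of this kind include Acod1, Tnf, Il1rn, Cxcl10, Tnip3, Traf1, Axl, Scd1, Fdps, Mki67, Mmp12 and Ccl2.

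The interaction was called for 6035 genes, 41.8% of those tested, with 3705 above 0 (25.7%) and 2330 below 0 (16.2%). These shares are the ones to set beside the list counts below. At 2-fold or more, 978 genes (6.78%) lay above 0 and 390 (2.70%) below 0. Of the 978, dexamethasone lowered 470 by 2-fold or more without LPS and moved them by under 2-fold with LPS. A further 135 were lowered without LPS and raised with it, and 168 passed 2-fold only with LPS, all upward. By the limit given above, none of the 470 at 20 CPM or more with LPS could fall 2-fold there. In wild type the pattern of the 470 held for 194 of 1571 genes (12.35%), against 48.06% in knockout. Of the 390, 218 were raised 2-fold or more without LPS and moved by under 2-fold with LPS, and 23 were lowered 2-fold only with LPS. Those 23 were all under 20 CPM with LPS.

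**Figure D2:**
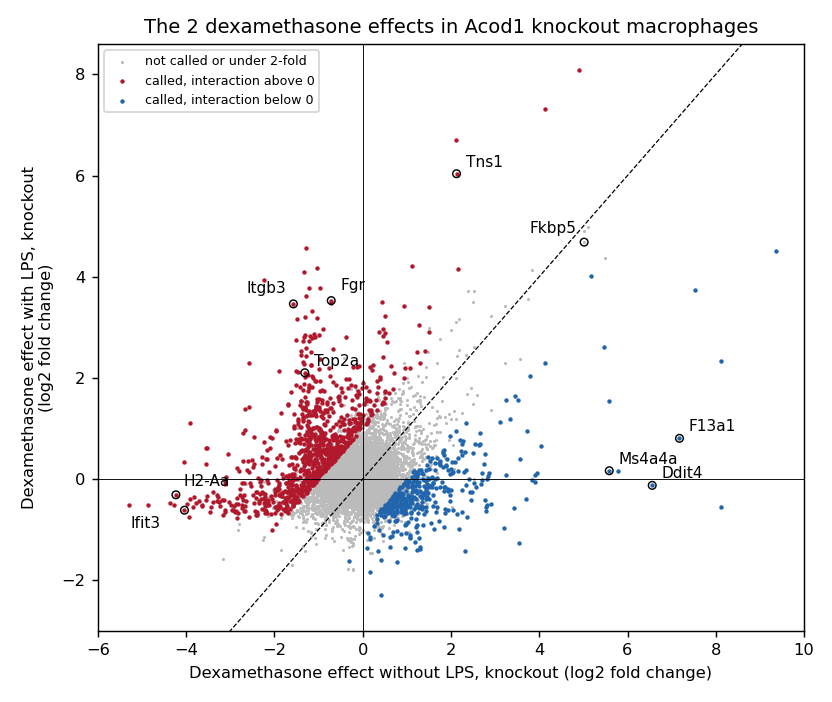
Dexamethasone effect without LPS (horizontal axis) and with LPS (vertical axis) in knockout macrophages, both as log2 fold change, for 13906 genes with more than 3 counts in each knockout group. On the dashed line the effects are equal; red and blue points are genes called with an interaction of 2-fold or more above and below 0. The 2 effects share no library, and the points thin out below -0.79 on the vertical axis.

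Glucocorticoid receptor targets split rather than moved as a group. In the list of known targets, 8 of 27 tested members were called above 0 and 14 below 0, with a median of -0.23 against 0.04 over all genes (medians here and below cover members with more than 3 counts in each knockout group). Without LPS dexamethasone raised 19 of them and with LPS 18, where over all genes it raised 20.9% and lowered 27.6% without LPS and raised 20.8% and lowered 17.3% with it. The balance with LPS turned with the scaling, from 3000 genes raised and 2499 lowered to 2664 and 3005 with RLE size factors. Nr3c1, the receptor, was lowered without LPS, from 144 ± 3.72 to 108 ± 3.13 CPM, and raised with LPS, from 128 ± 6.04 to 163 ± 1.43 CPM, an interaction of 0.76 ± 0.06 (adjusted p 3e-14). Of the receptor's cofactors and chaperones, 7 of 17, Nr3c1 included, were called above 0 and 3 below 0, against 25.7% and 16.2% over all genes. Without replicate 2 of the dexamethasone group the counts were 7 and 1.

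Ddit4 (chr10:59785491-59787656), which encodes an inhibitor of mTORC1, had the lowest interaction among called protein-coding genes at 1 CPM or more in every knockout group and 20 CPM in 1. It was at 2.5, 2.42, 3.06 and 3.26 CPM in the untreated libraries, at 260.2, 263, 268 and 286 CPM with dexamethasone, at 36.4, 36, 37.6 and 36.2 CPM with LPS and at 31.5, 34.3, 33.4 and 34.8 CPM with both. The dexamethasone libraries stood far above all others, and those with both agents lay just below those with LPS alone without overlap. Dexamethasone raised Ddit4 without LPS, with an effect of 6.56 ± 0.10, while its effect with LPS, -0.12 ± 0.08, did not pass the test, for an interaction of -6.68 ± 0.14 (adjusted p 1.8e-37). The wild-type interaction was -7.34 ± 0.14.

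Other classical targets kept part of their response. Fkbp5, which encodes a co-chaperone that binds the receptor, was at 26.4, 25.9, 26.3 and 24.7 CPM in the untreated libraries, at 819, 873, 828 and 826 CPM with dexamethasone, at 11.9, 8.41, 10.3 and 10.2 CPM with LPS and at 265, 228, 257 and 299 CPM with both. The 4 groups did not overlap, and dexamethasone raised Fkbp5 by 5.02 ± 0.06 without LPS and 4.68 ± 0.07 with it. Its interaction of -0.34 ± 0.10 was small (adjusted p 0.00634), and without replicate 1 of the LPS group it was -0.25 with an adjusted p of 0.0673. Tsc22d3, the source of the anti-inflammatory protein GILZ, went from 37.7 ± 4.82 to 432 ± 18.5 CPM without LPS and from 20.3 ± 0.629 to 59.8 ± 6.16 CPM with it, an interaction of -1.96 ± 0.10. Fkbp5 and Tsc22d3 were chosen after their values were seen.

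Per1, a clock gene, and Dusp1, a phosphatase that inactivates MAP kinases, also had interactions below 0. LPS alone raised both, by 1.03 and 2.96, where it lowered Tsc22d3, with an effect of -0.90. Per1 was at 31.3, 30.4, 29.7 and 31.1 CPM in the untreated libraries, at 179.8, 176, 182 and 179 CPM with dexamethasone, at 64, 65.4, 61.4 and 58.8 CPM with LPS and at 99.4, 94.7, 97.8 and 109.9 CPM with both, with no overlap between the groups. Its interaction was -1.86 ± 0.07, and that of Dusp1 was -1.97 ± 0.11, from 16.5 ± 1.13 CPM untreated, 103 ± 6.24 with dexamethasone, 129 ± 12.8 with LPS and 204 ± 17 with both. In the opposite direction, Tns1, which encodes the focal adhesion protein tensin 1, was at 186, 182, 169 and 184 CPM in the untreated libraries, at 757, 838, 757 and 793 CPM with dexamethasone, at 3.75, 4.08, 3.78 and 3.67 CPM with LPS and at 245, 215, 243 and 302 CPM with both. LPS alone left Tns1 far below every other group, and dexamethasone raised it by 2.13 ± 0.05 without LPS and by 6.04 ± 0.09 with it. The Tns1 interaction was 3.91 ± 0.11 (adjusted p 5.5e-32) on the log2 scale, while in CPM dexamethasone added less with LPS than without (difference -358.7).

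The acute-phase genes Lcn2 and Hp were nearly absent from untreated cells, so their levels are given in place of a fold. Lcn2, a siderophore-binding lipocalin, held 1 count in all untreated libraries together and averaged 5.16 ± 0.901 CPM with dexamethasone, 904 ± 53 with LPS and 3461 ± 230.1 with both. Hp, which encodes haptoglobin, averaged 0.174 ± 0.0196 CPM untreated, 50.3 ± 2.33 with dexamethasone, 724 ± 56.5 with LPS and 3626 ± 294 with both. Both were called below 0, although in CPM dexamethasone added more with LPS (differences 2552 and 2851).

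The lowest interactions after Ddit4 belonged to genes that dexamethasone raised strongly without LPS and hardly with it. F13a1, the A subunit of coagulation factor XIII and a gene of alternatively activated macrophages, was at 2.85, 3.05, 2.44 and 2.67 CPM in the untreated libraries, at 385, 422, 398 and 382 CPM with dexamethasone, at 2.66, 1.96, 1.57 and 1.75 CPM with LPS and at 3.25, 3.98, 3.95 and 2.76 CPM with both. The dexamethasone libraries alone were high, and the untreated libraries overlapped both LPS-treated groups. Its interaction was -6.37 ± 0.22 (adjusted p 1.7e-28), with dexamethasone effects of 7.18 ± 0.07 without and 0.80 ± 0.15 with LPS. Ms4a4a, a membrane protein of the same macrophage state, was at 5.11, 3.68, 4.59 and 4.92 CPM in the untreated libraries, at 208, 239, 215 and 222 CPM with dexamethasone, at 84.2, 81.1, 87.7 and 81.1 CPM with LPS and at 92.7, 88.9, 96.8 and 96.2 CPM with both. LPS alone raised Ms4a4a, dexamethasone raised it further only slightly, and the groups did not overlap, giving an interaction of -5.42 ± 0.09.

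Among receptors and enzymes of this kind were Fgfr1, a fibroblast growth factor receptor, with an interaction of -3.96 ± 0.20, and Gprc5b, an orphan G protein-coupled receptor, with -2.82 ± 0.10. Bst1, a cell-surface enzyme of NAD metabolism, had -2.77 ± 0.11, and Pla2g7, the secreted platelet-activating factor acetylhydrolase, -2.27 ± 0.06. For these 4 genes dexamethasone effects with LPS ran from -0.06 to 0.50, against 2.77 to 3.91 without. Ccr1, a receptor for CC chemokines, had -2.90 ± 0.17, from 2.28 ± 0.492 CPM untreated, 11.1 ± 0.802 with dexamethasone, 91.7 ± 12.2 with LPS and 58.3 ± 3.44 with both. Mmp8, a collagenase also used here as a neutrophil marker, had -3.33 ± 0.11, from 12.2 ± 1.12 CPM untreated, 86 ± 0.696 with dexamethasone, 48.8 ± 6.33 with LPS and 34.3 ± 3.42 with both. The 10 neutrophil markers summed to 11.1 to 13.4 CPM in untreated libraries, 85.8 to 87.0 with dexamethasone, 43.7 to 58.3 with LPS and 34.4 to 42.7 with both, most of it Mmp8, with Retnlg at 0 throughout. The part of other cells in the Mmp8 result was not tested. Jaml, an adhesion molecule of leukocytes, averaged 75.9 ± 4.36 CPM with dexamethasone, 2.88 ± 0.166 with both and under 0.12 in the other groups, and its call was lost without replicate 1 of the LPS group (adjusted p 0.111).

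**Figure D3:**
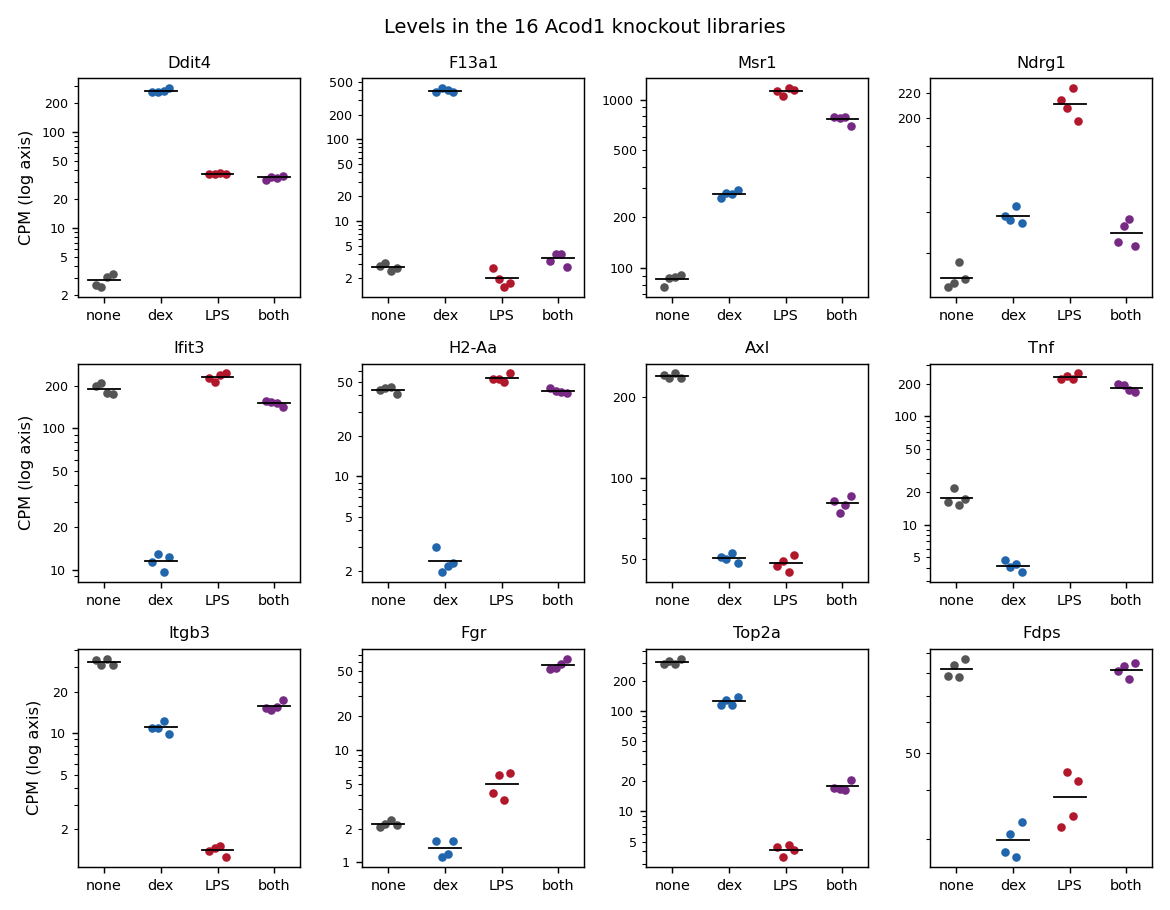
CPM on a log axis in the 16 knockout libraries for 12 genes, by treatment; points are libraries and bars are group means. Ddit4 and F13a1 are highest with dexamethasone alone, and Ddit4 but not F13a1 is also raised by LPS alone. Ifit3 and H2-Aa are low only with dexamethasone alone, and Itgb3 and Top2a are lowest with LPS alone.

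Inflammatory genes proper could not all be given an interaction, because several were at or near 0 counts without LPS. Il1b was at 7614, 6836, 7362 and 6477 CPM with LPS and at 4118, 4639, 4814 and 3875 CPM with both, but averaged 0.197 CPM in untreated cells and 0.0241 with dexamethasone. Nos2, the inducible nitric oxide synthase, fell from 3532 ± 235 to 2228 ± 177 CPM, and Il6, at 45.2 ± 4.48 CPM with LPS, stood at 29.8 ± 3.21 CPM with both. None of the 3 passed the test of the interaction (adjusted p 0.101, 0.908 and 0.365), although Il1b did without a filter on low counts (adjusted p 0.0276). In CPM the differences of the differences were -2711 for Il1b and -1305 for Nos2.

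Of the 20 tested inflammatory cytokines and enzymes, 4 were called above 0, 3 below 0 and 13 not at all. Over all genes 25.7% were called above 0 and 16.2% below, so these counts do not set the list apart. Tnf was at 16.2, 21.9, 15.2 and 17.2 CPM in the untreated libraries, at 4.66, 4.01, 4.35 and 3.66 CPM with dexamethasone, at 220.3, 236, 222 and 249.5 CPM with LPS and at 199, 196, 175 and 169 CPM with both. It was lowest with dexamethasone alone, and the libraries with both lay below those with LPS without overlap. Dexamethasone lowered Tnf with an effect of -2.08 ± 0.12 without LPS and -0.33 ± 0.06 with it, for an interaction of 1.75 ± 0.14 (adjusted p 5.4e-15), while the CPM difference was -33.82. Il1rn, the interleukin 1 receptor antagonist, had 1.81 ± 0.15 from 11.5 ± 0.856 CPM untreated, 2.1 ± 0.401 with dexamethasone, 482 ± 54.1 with LPS and 310.0 ± 17.8 with both, a CPM difference of -162.3. Ptges, an enzyme of prostaglandin E2 synthesis, had -1.67 ± 0.16, from 1.08 ± 0.2 CPM untreated, 2.98 ± 0.757 with dexamethasone, 944 ± 21.8 with LPS and 809 ± 17.4 with both.

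Of 21 chemokines, 8 were called above 0 and 2 below 0, with a median of 0.88. Cxcl10, which attracts T cells and depends on interferon, had 4.78 ± 0.27 from 15.2 ± 2.23 CPM untreated, 0.373 ± 0.103 with dexamethasone, 60.6 ± 4.82 with LPS and 42.1 ± 3.82 with both, with a CPM difference of -3.66. Ccl6 had -1.38 ± 0.10. Of 28 genes of NF-kappaB, AP-1 and their feedback regulators, 15 were called above 0 and 10 below 0. Tnip3, a binding partner of the inhibitor A20, had 1.91 ± 0.07: dexamethasone lowered it without LPS, with an effect of -1.93 ± 0.06, and with LPS the effect was -0.02 ± 0.04. Traf1, a signalling adaptor of TNF receptors, had 1.35 ± 0.09, with a CPM difference of -68.51.

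In knockout cells dexamethasone lowered the interferon-stimulated genes far more without LPS than with it. Of the 34 tested, 34 were lowered without LPS, with a median effect of -2.06, and 33 with LPS, with a median of -0.39. The interaction was called above 0 for 33 and below 0 for 0, with a median of 1.66, and Gbp7 was not called. A member lowered by more than 0.79 without LPS and at 20 CPM or more with LPS could only lie above 0, as given above. For such members the direction follows from that limit. In wild type, where 32% of all genes were called above 0 and 28.4% below 0, 24 of the list were above and 5 below 0, with a median of 0.51, and the difference between genotypes was called for 33, all higher in knockout. In wild-type cells dexamethasone changed the list by a median of -2.19 without LPS and -1.73 with it.

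Ifit3, an interferon-induced protein with tetratricopeptide repeats, was at 198, 208, 177 and 177 CPM in the untreated libraries, at 11.4, 12.9, 9.65 and 12.3 CPM with dexamethasone, at 227, 213, 238 and 245 CPM with LPS and at 156, 153, 151 and 142 CPM with both. Its libraries with dexamethasone alone were the lowest by a wide margin, and those with both agents lay below the untreated and the LPS libraries. The interaction was 3.42 ± 0.10 (adjusted p 3.8e-31), against 1.31 ± 0.12 in wild type. Its neighbours Ifit1, which binds foreign RNA, Ifit2 and Ifit3b had 3.13 ± 0.10, 3.30 ± 0.10 and 3.89 ± 0.15. Ifit3 and Ifit3b are close copies between which the counting could divide reads, so their separate values are uncertain. Oasl2, of the oligoadenylate synthetase family, had 1.73 ± 0.05.

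The promoters of Ifit1, Ifit3 and Ifit3b are shown because these neighbouring genes moved together and each window holds matches to the interferon-stimulated response element, in capitals. The fourth neighbour, Ifit2, has 2 windows, and neither holds such a match (1 holds an NF-kappaB match). Those shown are the 250 bases before the gene's start in RefSeq on GRCm38.p6, 5′ to 3′.
Ifit1, chr19:34640639-34640888, plus strand: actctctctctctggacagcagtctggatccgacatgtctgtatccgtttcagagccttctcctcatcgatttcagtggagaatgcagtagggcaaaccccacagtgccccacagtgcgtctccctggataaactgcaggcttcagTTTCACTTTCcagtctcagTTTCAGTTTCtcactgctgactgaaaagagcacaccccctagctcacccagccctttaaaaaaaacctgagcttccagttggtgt
Ifit3, chr19:34583279-34583528, plus strand: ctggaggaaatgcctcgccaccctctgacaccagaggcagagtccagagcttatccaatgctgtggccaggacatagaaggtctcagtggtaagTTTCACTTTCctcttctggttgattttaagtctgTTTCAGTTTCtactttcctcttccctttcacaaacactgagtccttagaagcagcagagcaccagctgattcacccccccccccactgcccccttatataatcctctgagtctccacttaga
Ifit3b, chr19:34607707-34607956, plus strand: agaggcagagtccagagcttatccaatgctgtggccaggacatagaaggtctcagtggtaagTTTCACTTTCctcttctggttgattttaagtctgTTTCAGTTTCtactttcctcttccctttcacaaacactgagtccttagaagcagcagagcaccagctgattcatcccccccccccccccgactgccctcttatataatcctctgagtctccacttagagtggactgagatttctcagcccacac
The letters searched were TTTC, 2 unspecified bases and TTTC, on both strands, in windows from 250 bases before to 50 after the start. Among the 32851 RefSeq windows 3.44% held a match. Of the 25 interferon-stimulated genes with a window, 16 had a match in any of their 30 windows. A gene with several windows has more chances to match, so gene counts and shares of windows are not like measures. The glucocorticoid receptor element (GNACA, 3 unspecified bases, TGTNC) was found in 0.475% of all windows and in 0 of the 25 genes. NF-kappaB letters (GGGA, 2 unspecified bases, TTCC) were in 1.47% of windows and 4 of the 25 genes, and AP-1 letters (TGANTCA) in 7.81% and 6, Ifit3 and Ifit3b among them. The motifs were not masked for overlap, and a match is a description of letters, not of binding.

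Of 14 genes of MHC class II and co-stimulation, which present antigen to T cells, 9 were called above 0 and 0 below 0, with a median of 0.76. H2-Aa, an alpha chain of MHC class II, was at 43.5, 45.1, 46.2 and 40.7 CPM in the untreated libraries, at 2.97, 1.96, 2.17 and 2.26 CPM with dexamethasone, at 52.8, 52.9, 49.9 and 57.9 CPM with LPS and at 45.5, 42.8, 42.3 and 41.2 CPM with both. The dexamethasone libraries were the lowest, and the remaining 3 groups lay close together, the untreated group overlapping that with both agents. The interaction was 3.92 ± 0.12 (adjusted p 1.3e-30), with H2-Eb1 at 3.75 ± 0.13 and Cd74, the invariant chain, at 2.94 ± 0.09. H2-Ab1 had 3.27 ± 0.11 on the log2 scale and -74.28 in CPM. The limit on lowered genes sets the direction of these interactions too, as each gene was lowered by more than 0.79 without LPS.

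The highest interactions under the same minimum levels included adhesion, signalling and membrane proteins that dexamethasone raised with LPS. Itgb3, the integrin beta 3 subunit, was at 34.1, 30.9, 34.6 and 31.1 CPM in the untreated libraries, at 11, 10.8, 12.3 and 9.9 CPM with dexamethasone, at 1.41, 1.46, 1.52 and 1.26 CPM with LPS and at 15.2, 14.6, 15.5 and 17.5 CPM with both. All 4 groups were separate, with the LPS libraries lowest. Dexamethasone lowered Itgb3 without LPS, with an effect of -1.57 ± 0.08, and raised it with LPS, with an effect of 3.46 ± 0.13, for an interaction of 5.03 ± 0.16 (adjusted p 1.3e-30).

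Fgr, a Src-family kinase of myeloid cells, was at 2.05, 2.18, 2.4 and 2.15 CPM in the untreated libraries, at 1.54, 1.12, 1.18 and 1.54 CPM with dexamethasone, at 4.11, 6.04, 3.57 and 6.26 CPM with LPS and at 52.1, 54, 58.6 and 64.9 CPM with both. It was high only with both agents, with an interaction of 4.24 ± 0.26 (adjusted p 6.9e-19). The adjacent genes Tmem176a and Tmem176b, which encode intracellular membrane proteins, had 3.35 ± 0.12 and 3.96 ± 0.10. Tmem176b was at 31.6, 28.6, 27.7 and 24.8 CPM in the untreated libraries, at 13.6, 14.7, 10.9 and 13 CPM with dexamethasone, at 17.7, 18.9, 18 and 20.4 CPM with LPS and at 142, 126, 131 and 144 CPM with both, again highest with both. Scd1, the stearoyl-CoA desaturase, had 3.62 ± 0.14, from 52.3 ± 3.58 CPM untreated, 7.96 ± 0.272 with dexamethasone, 46.9 ± 6.81 with LPS and 87.7 ± 2.02 with both. The 6 B cell markers, mostly Ighm, summed to 75.6 to 87.3 CPM untreated, 41.5 to 50.1 with dexamethasone, 0.482 to 1.01 with LPS and 1.03 to 1.70 with both, and the part of such cells in these results was not tested. Ptx3, a pentraxin of innate defence, was at 69.9, 57.3, 67.3 and 78.3 CPM with both and averaged under 0.67 CPM elsewhere. Its call was lost without replicate 2 of the untreated group (adjusted p 1).

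Cell cycle genes had the highest median of the pathway lists. All 28 of 28 tested members were called above 0, with a median of 2.38. Dexamethasone lowered 28 of them without LPS, with a median effect of -1.14, and with LPS raised 23 and lowered 1, with a median of 1.03. The wild-type interaction was likewise called above 0 for 28 of 28, with a larger median of 3.19. Top2a, the DNA topoisomerase of dividing cells, was at 293, 318, 298 and 334 CPM in the untreated libraries, at 115, 130.4, 117 and 139 CPM with dexamethasone, at 4.37, 3.52, 4.62 and 4.1 CPM with LPS and at 17.3, 16.9, 16.4 and 20.7 CPM with both. LPS alone left it lowest, and the libraries with both agents stood above those with LPS yet far below the untreated ones. Its interaction was 3.41 ± 0.12 (adjusted p 3.8e-28). The proliferation marker Mki67 had 2.38 ± 0.12, and Ccnb1, the mitotic cyclin B1, 3.13 ± 0.15. Ube2c, the ubiquitin-conjugating enzyme of the anaphase-promoting complex, and Cenpf, a kinetochore protein, were at 1 and 2 counts in the LPS group and at 5.38 ± 0.851 and 1.79 ± 0.497 CPM with both.

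Of 23 cholesterol synthesis genes, 22 were called above 0 and 0 below 0, with a median of 1.23. Without LPS dexamethasone lowered 21 of them and with LPS it raised 20. The wild-type interaction was called above 0 for all 23, with a median of 1.80. Fdps, the farnesyl diphosphate synthase, was at 78.6, 83.8, 78.3 and 87.2 CPM in the untreated libraries, at 27.8, 30.9, 27 and 33.3 CPM with dexamethasone, at 32.3, 44.7, 34.4 and 42.4 CPM with LPS and at 80.8, 83.4, 77.2 and 84.8 CPM with both. The dexamethasone and LPS libraries overlapped at the low end, and the untreated libraries overlapped those with both at the high end. Its interaction was 2.55 ± 0.11 (adjusted p 8.3e-25), and that of Idi1, the isomerase one step earlier, 2.42 ± 0.13.

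Genes of mitochondrial respiration lay above 0 and those of hypoxia-inducible factor 1 below 0. Of 50 nuclear genes of oxidative phosphorylation 44 were called above 0 and 0 below 0, with a median of 0.44, and of 33 genes of the TCA cycle and pyruvate entry 22 and 1, with a median of 0.36. In wild type the counts were 48 and 0, and 27 and 4, with medians of 0.82 and 0.76. Idh3a, the catalytic subunit of NAD-dependent isocitrate dehydrogenase, was at 23.4, 25.1, 25.3 and 26.9 CPM in the untreated libraries, at 23.2, 24.5, 24 and 23 CPM with dexamethasone, at 26.3, 29.1, 25.5 and 26.8 CPM with LPS and at 57.3, 53.2, 59.8 and 61.7 CPM with both. Its libraries with both agents stood above all others, which lay close together, and the interaction was 1.20 ± 0.08 (adjusted p 8.8e-18). Sdha, of succinate dehydrogenase, had 0.51 ± 0.04, Ndufs8 of complex I 1.17 ± 0.09 and Uqcrc1 of complex III 0.63 ± 0.05. The mitochondrially encoded share of counts was 0.396% to 0.442% untreated, 0.508% to 0.576% with dexamethasone, 0.261% to 0.329% with LPS and 0.322% to 0.367% with both.

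Of 17 targets of hypoxia-inducible factor 1 outside glycolysis, 14, Ddit4 among them, were called below 0 and 1 above 0, with a median of -0.69. In wild type 15 were called below 0 and 0 above 0, with a median of -3.495. Ndrg1, a stress-induced gene, was at 106, 107, 116 and 109 CPM in the untreated libraries, at 138, 136, 143 and 135 CPM with dexamethasone, at 214, 208, 224 and 198 CPM with LPS and at 125, 133, 137 and 123 CPM with both. Dexamethasone libraries lay above untreated ones without LPS and below the LPS ones with it, in neither case with overlap, and the interaction was -1.04 ± 0.07 (adjusted p 4.7e-17). Bnip3, which marks mitochondria for removal, had -1.12 ± 0.09. Of 21 glycolysis genes 12 were called below 0 and 4 above 0, with the enolase Eno1 at -0.52 ± 0.04 and the phosphofructokinase Pfkl at -0.89 ± 0.05. Of 23 NRF2 targets 10 were below 0 and 7 above, against 16.2% and 25.7% over all genes. Hmox1, the heme oxygenase, had -1.40 ± 0.05 from 345 ± 9.69 CPM untreated, 581 ± 14.6 with dexamethasone, 7184 ± 352 with LPS and 4597 ± 256 with both.

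Scavenger, efferocytosis and alternative-activation genes did not share a direction. Of 21 tested, 6 were called above 0 and 7 below 0, against 25.7% and 16.2% over all genes. Axl, a receptor for apoptotic cells, was at 241, 235, 244 and 234 CPM in the untreated libraries, at 50.7, 50.1, 52.8 and 48.3 CPM with dexamethasone, at 46.9, 49.1, 44.8 and 51.7 CPM with LPS and at 82.3, 73.7, 79.4 and 85.6 CPM with both. Dexamethasone and LPS each left Axl at a similar low level, with overlapping libraries, and the libraries with both were between these and the untreated ones, for an interaction of 2.98 ± 0.07 (adjusted p 3e-34). The scavenger receptor Msr1 was at 77.7, 87.2, 88.5 and 91.4 CPM in the untreated libraries, at 263, 279, 277 and 291 CPM with dexamethasone, at 1121, 1054, 1169 and 1136 CPM with LPS and at 789, 778, 788 and 703 CPM with both, with no overlap between groups. Dexamethasone raised Msr1 without LPS, with an effect of 1.68 ± 0.05, and lowered it with LPS, with -0.55 ± 0.04, for an interaction of -2.23 ± 0.06. Stab1, another scavenger receptor, had -1.66 ± 0.05. Of the remaining lists, 10 of 18 genes for serine synthesis and the integrated stress response were called above 0 and 3 below 0, of 9 LXR targets 5 and 3, and of 20 endoplasmic reticulum chaperones 4 and 4.

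**Figure D4:**
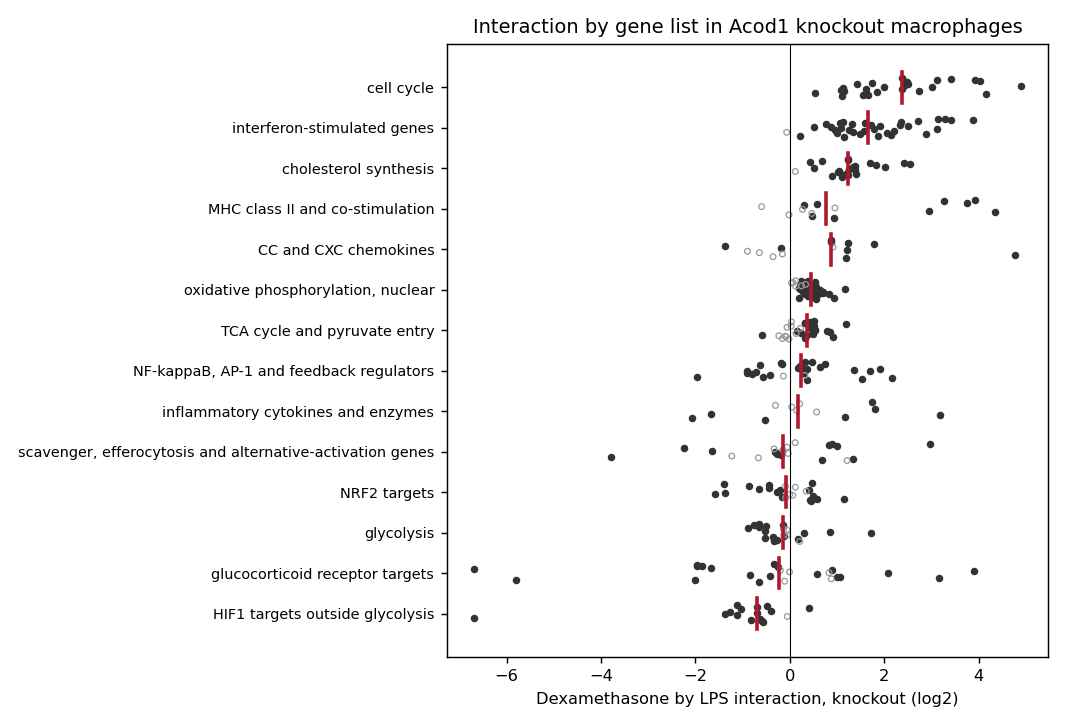
Interaction (log2) of each list member in knockout macrophages, by gene list, for members with more than 3 counts in each knockout group; filled points were called, open points were not, and red bars are list medians. The cell cycle median is 2.38 and that of the targets of hypoxia-inducible factor 1 is -0.69.

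The wild-type interaction, from 16 separate libraries, was called for 8713 genes (60.4%), and at 2-fold or more for 1571 above 0 (10.9%) and 1454 below 0 (10.1%). Of the 978 knockout genes at 2-fold or more above 0, 707 were also called at 2-fold or more above 0 in wild type, which is 72.3% of the knockout and 45.0% of the wild-type genes, and 37 were called below 0 there. Of the 390 below 0, 263 were shared, 67.4% of the knockout and 18.1% of the wild-type genes, and 4 were called above 0. In wild type 881 of the 1454 genes below 0 were lowered 2-fold or more only with LPS, against 23 of the 390 in knockout. All of these 23 were under 20 CPM with LPS, so the contrast restates the limit on lowered genes given above. The knockout minus wild-type difference, tested directly, was called for 4721 genes (32.7%), 2460 higher in knockout (17.1%) and 2261 lower (15.7%). That balance turned with RLE size factors, to 2220 higher and 2559 lower. The difference rests on the libraries with both agents, whose limit on lowered genes and partial level of raised genes are given above.

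Differences are named here among genes at 1 CPM or more in all 8 groups and 20 CPM in 1. The named genes with high differences were ones that dexamethasone lowered strongly in LPS-treated wild-type cells. Mmp12, the macrophage elastase, was at 85.1, 81.9, 102 and 112 CPM in the untreated libraries, at 21.7, 21.9, 22.9 and 24.7 CPM with dexamethasone, at 1091, 929, 1155 and 906 CPM with LPS and at 574, 641, 679.5 and 638 CPM with both. In wild type it averaged 1698 ± 367 CPM with LPS and 2.48 ± 0.321 with both. The interaction was 1.38 ± 0.16 in knockout, with a CPM difference of -314.7, and -7.13 ± 0.24 in wild type, a difference of 8.51 ± 0.30 (adjusted p 4e-28). Ccl2, which attracts monocytes, had 0.87 ± 0.24 (CPM difference -268.9) against -5.71 ± 0.36, and the collagenase Mmp13 -0.50 ± 0.18 against -7.77 ± 0.24. The knockout call of Mmp13 was lost without replicate 2 of the dexamethasone group (adjusted p 0.0598). Ndrg1 differed by 4.53 ± 0.12, Bnip3 by 3.47 ± 0.13 and Il1rn by 3.95 ± 0.30.

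Under the same minimum levels, the named genes with low differences were ones that dexamethasone raised more with LPS in wild type than in knockout. F13a1 differed by -2.21 ± 0.27 and Tmem176b by -1.99 ± 0.15. P2ry13, a receptor for ADP, had 0.72 ± 0.17 in knockout against 2.79 ± 0.19, and Ldlrad3 1.40 ± 0.12 against 3.36 ± 0.12. Both ran the other way in CPM, at -3.27 and -63.39 in knockout. The kinetochore motor Cenpe had 2.47 ± 0.16 against 4.37 ± 0.15. Gprc5b and Bst1, with differences of 0.12 ± 0.14 and -0.15 ± 0.17 (adjusted p 0.587 and 0.574), did not pass that test.

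Kit, a receptor tyrosine kinase of progenitors and mast cells and the most abundant of the 5 mast cell markers searched, was at 24.1, 19.7, 21 and 24.7 CPM in the untreated libraries, at 2.25, 2.01, 2.72 and 2.08 CPM with dexamethasone, at 2.4, 2.37, 2.2 and 2.29 CPM with LPS and at 1.97, 1.16, 1.86 and 2.47 CPM with both. The untreated libraries were the highest, and the remaining 3 groups overlapped. Its interaction was 2.98 ± 0.25 in knockout and -0.32 ± 0.43 in wild type, a difference of 3.30 ± 0.49 (adjusted p 3.6e-07). Wild-type libraries averaged 14.8 CPM untreated, 1.37 with dexamethasone, 2.08 with LPS and 0.146 with both. The last rests on 12 counts, under the minimum of 1 CPM used for the differences above. The mast cell markers Mcpt4, Tpsb2 and Fcer1a were at 0 in every knockout library.

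**Figure D5:**
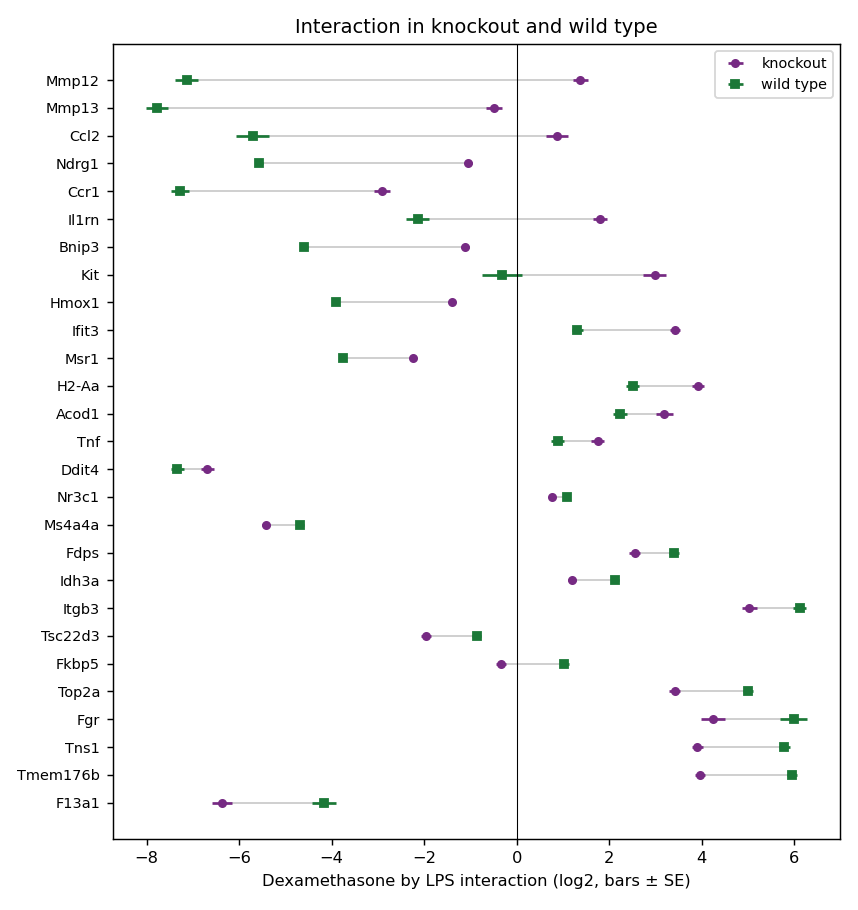
Interaction (log2, bars ± SE) in knockout (circles) and wild type (squares) for 27 of the named genes, ordered by the knockout minus wild-type difference. Mmp12 differs most upward, by 8.51, and of the genes plotted F13a1 most downward, by -2.21.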

How the data were processed

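Counts of read pairs per gene were deposited as 1 table for 32 libraries. Per the file headers the authors counted exons with featureCounts 2.0.0 without regard to strand on GENCODE vM32, so reads of overlapping and antisense genes cannot be told apart; the submitters' processing notes name STAR, GRCm38 and mm10. Release M32 was made for a later build, so positions are those of the deposited table. Symbols came from an earlier GENCODE release: 52029 of 56953 identifiers matched, and the other 4924 held 0.846% of counts.

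All 8 groups were fitted together in edgeR 4.0.16 (R 4.3.3) with TMM scaling, filterByExpr by group, glmQLFit and glmQLFTest, two-sided, with Benjamini-Hochberg adjustment over 14427 genes. The fit had 24 residual degrees of freedom and a biological coefficient of variation of 4.36%. The script was tested on simulated counts. Libraries of 1 group differed beyond sampling noise (chi-square per degree of freedom 2.22 to 4.85 over 24 knockout pairs), so none was treated as deposited more than once. This does not show separate cultures or animals. In wild type, replicate 3 of the LPS group stood at 16.1 to 16.7 against the other libraries of its group. It enters the shared estimate of the spread and every wild-type interaction. Without it the knockout minus wild-type difference was called for 4782 genes.

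Genes named were a fixed core (Acod1, Nr3c1, Il1b, Il6, Nos2), up to 4 members of each list by adjusted p, up to 12 highest and 12 lowest interactions at 1 CPM or more in every knockout group and 20 CPM in 1, up to 5 in each direction with a group under 1 CPM, and up to 5 in each direction for the knockout minus wild-type difference at 1 CPM or more in all 8 groups and 20 CPM in 1. Kit was named as a marker. A result withheld here is not reported. The members and lists were chosen with earlier results of these data known. Alternatives were DESeq2 1.42.0, RLE or no scaling, no filter, a stricter threshold, knockout groups alone, a lane term, a replicate block, libraries of 1 lane, each library left out and linear CPM. RefSeq promoter windows on GRCm38.p6 were searched on both strands.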

Additional observations from a re-analysis of the deposited data

Results flagged for a closer look

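In 19 of 289 sets of 4 knockout libraries checked, the highest or lowest library lay farther from the nearest other than Dixon's critical value at 95% allows. Chance alone marks about 1 in 20 such sets. In the untreated group these were Acod1 in replicate 3, which at 4.71 CPM stood below the others, Cenpe in replicate 3, which at 58.5 CPM stood below the others, Oasl2 in replicate 2, which at 419.6 CPM stood above the others, Ptx3 in replicate 2, which at 0.0968 CPM stood above the others and Lcn2 in replicate 4, which at 0.037 CPM stood above the others. In the dexamethasone group they were Fkbp5 in replicate 2, which at 873 CPM stood above the others, Sdha in replicate 2, which at 235 CPM stood above the others, Ccl2 in replicate 2, which at 4.95 CPM stood above the others, Il6 in replicate 2, which at 0.0467 CPM stood above the others, Ldlrad3 in replicate 3, which at 163 CPM stood above the others and Scd1 in replicate 4, which at 8.37 CPM stood above the others. Replicate 2 of that group was the high library for Fkbp5, Sdha, Ccl2 and Il6. In the LPS group they were Fgfr1 in replicate 1, which at 3.07 CPM stood above the others, Jaml in replicate 1, which at 0.364 CPM stood above the others, Ube2c in replicate 3, which at 0.0524 CPM stood above the others and the mitochondrial share in replicate 4, which at 0.329% stood above the others. In the group with both agents they were Mmp8 in replicate 1, which at 29.2 CPM stood below the others, Stab1 in replicate 3, which at 382 CPM stood below the others, Msr1 in replicate 4, which at 703 CPM stood below the others and Ldlrad3 in replicate 4, which at 52.3 CPM stood above the others. The Ptx3, Lcn2, Il6, Jaml and Ube2c values are of a few counts.

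The interaction differed between knockout and wild type for 57 of the 70 named genes, by a direct test of the difference in edgeR. Over all tested genes the difference was called for 32.7%, and some genes were named for its size, so the 57 is partly set by that choice. The knockout libraries with both agents enter every difference, with their limit on lowered genes. In them, genes that wild-type cells raised 16-fold or more reached a median of 36.7% to 45.3% of the wild-type level. The values below are knockout minus wild type on the log2 scale. Among inflammatory genes and chemokines the differences were Mmp12 8.51, Mmp13 7.28, Ccl2 6.58, Il1rn 3.95, Cxcl10 3.24, Ccr1 4.38, Ccl6 1.11, Acod1 0.96, Tnf 0.86 and Traf1 0.75. Among interferon-stimulated and antigen presentation genes they were Ifit3 2.11, Ifit3b 1.70, Ifit2 1.48, Ifit1 1.14, Oasl2 0.46, H2-Aa 1.41, Cd74 1.29, H2-Ab1 1.18 and H2-Eb1 1.05. All of these were above 0. Hypoxia, glycolysis and heme oxygenase genes also lay above 0, with Ndrg1 4.53, Bnip3 3.47, Hmox1 2.52, Eno1 1.29 and Pfkl 0.66. So did Kit 3.30, Msr1 1.51, Mmp8 1.40, Ddit4 0.65 and Stab1 0.37.

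Below 0 were the respiration genes Idh3a -0.94, Sdha -0.69, Ndufs8 -0.59 and Uqcrc1 -0.37, the cholesterol and lipid genes Idi1 -1.05, Fdps -0.86, Scd1 -1.42 and Pla2g7 -0.93 and the cell cycle genes Cenpe -1.90, Ccnb1 -1.72, Top2a -1.59 and Mki67 -1.03. Of the receptor and its targets, Nr3c1 -0.34, Fkbp5 -1.36, Tsc22d3 -1.09, Per1 -0.46, Tns1 -1.88 and Hp -1.55 were below 0 as well. The remaining genes below 0 were Jaml -4.19, F13a1 -2.21, P2ry13 -2.07, Tmem176b -1.99, Ldlrad3 -1.96, Fgr -1.75, Tmem176a -1.44, Itgb3 -1.09, Ms4a4a -0.74 and Axl -0.49. The Hp and Jaml values rest on groups near 0 counts, and that of Kit on 12 counts in wild type with both agents.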

How the results depend on the processing

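The total of called genes in each comparison stayed within 1.5 times its value under each alternative run. Smaller counts did not: the genes that dexamethasone lowered 2-fold or more with LPS in knockout went from 54 to 26 at an adjusted p under 0.01 and to 83 without replicate 2 of the group with both agents. The highest mean with LPS among the 54 was 3.33 CPM. The knockout interaction was called for 4733 to 6189 genes across the other settings, with 4733 at an adjusted p under 0.01, 6050 with RLE size factors, 6132 with DESeq2, 5602 without a filter on low counts and 6189 with the knockout groups fitted alone. Leaving out each library in turn gave 5757 to 5918 genes for the knockout interaction, 8534 to 8708 for wild type and 4466 to 4789 for their difference. For the dexamethasone effect without and with LPS in knockout it gave 6572 to 7024 and 4862 to 5511, and for the LPS effect without and with dexamethasone 10733 to 11066 and 10708 to 11030. Size factors moved the split above and below 0 from 3705 and 2330 to 3349 and 2701 with RLE and 3394 and 2738 with DESeq2. For the knockout minus wild-type difference the split turned from 2460 and 2261 to 2220 and 2559 with RLE, 2289 and 2627 with DESeq2 and 2097 and 2724 without scaling. For the dexamethasone effect with LPS in knockout it turned from 3000 and 2499 to 2664 and 3005 with RLE and 2697 and 3040 with DESeq2, and was 3400 and 2087 without scaling. The LPS effect raised 5310 and lowered 5667 genes without dexamethasone and 5559 and 5390 with it, and without scaling 3864 and 7455, and 4039 and 7223. Replicate numbers did not pair the libraries: the deviations of 24 same-numbered pairs correlated at -0.052 to 0.058. With the replicate number as a block 6013 genes were called.

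On a linear CPM scale, which asks for a departure from adding rather than multiplying, the direction turned for Acod1 (-1056), Lcn2 (2552), Hp (2851), Tns1 (-358.7), H2-Ab1 (-74.28), Tnf (-33.82), Il1rn (-162.3), Cxcl10 (-3.66), Traf1 (-68.51), Mmp12 (-314.7), Ccl2 (-268.9), P2ry13 (-3.27) and Ldlrad3 (-63.39). Il1b (-2711) and Nos2 (-1305), neither called, were also opposite in sign to their log2 values. Nos2, at a few counts without LPS, changed sign with some libraries left out, over a range of -0.242 to 1.42. The scavenger list had 1 more member above than below 0 at an adjusted p under 0.01, with 6 above and 5 below. The receptor and its cofactors, 7 above and 3 below, became 7 and 1 at that threshold and without replicate 2 of the dexamethasone group. The endoplasmic reticulum chaperones, 4 and 4, became 4 and 7 with DESeq2. Il1b was called without a filter on low counts (adjusted p 0.0276) and with the block (0.0283). Jaml, Ptx3, Mmp13 and Fkbp5 each lost the call without 1 library, as given beside their values. Depth limits genes at a few counts in a group, for which levels are printed. No alternative can separate the interaction from the limit on lowered genes or from the partial level of raised ones. All 4 knockout libraries with both agents share these.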

Other observations

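Markers of other cells moved between the knockout treatments at low levels. The 7 dendritic cell markers summed to 1.55 to 2.32 CPM untreated, 14.2 to 15.9 with dexamethasone, 10.6 to 14 with LPS and 6.91 to 10.0 with both. The 6 fibroblast markers reached 3.96 CPM at most, with Col3a1 at 0 in every library. Of 7 T and NK cell markers Cd3e, Cd3g and Nkg7 were at 0 in all 16 libraries.

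Of 20 endoplasmic reticulum chaperones tested, 4 were called above 0 and 4 below 0 in the knockout interaction (4 and 7 with DESeq2), and 15 above and 2 below 0 in wild type. The difference itself was called for 16, of which 15 were lower in knockout. Over all genes it was called for 32.7%, with 15.7% lower in knockout. For the interaction, 25.7% of all genes were called above 0 and 16.2% below in knockout, and 32% and 28.4% in wild type.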
